A study of Mus musculus with 35 samples.

Results

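The imprinted Dlk1-Dio3 cluster of mouse chromosome 12 was followed through 35 arrays by every probe named Gtl2 (the maternally expressed RNA now called Meg3), Rian, Mirg, Dlk1, Dio3 or Rtl1. The name search found 11 of 41174 gene probes, for 5 of the 6 genes: 5 probes for Gtl2, 2 for Rian, 1 for Mirg, 2 for Dlk1 and 1 for Dio3. No probe was named Rtl1 or Meg3, so Rtl1 has no value here. All 11 passed the brightness filter of the test, which kept 27622 probes. Where a gene had several probes, the brightest over clones and ES cells was its main probe (Gtl2 probe 5, Rian probe 2, Dlk1 probe 2), with probes numbered from Dlk1 towards Dio3.

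Imprinted genes are transcribed from only the maternal or only the paternal chromosome. In this cluster the maternal copy gives long noncoding RNAs, Gtl2, Rian and Mirg, which lie in a row, run in the same direction and carry small nucleolar RNAs and microRNAs, while the paternal copy gives the proteins Dlk1, Rtl1 and Dio3. A methylated control region between Dlk1 and Gtl2 keeps the paternal copy of the noncoding RNAs off, and in mouse iPS cells their silencing is known as a mark of clones that contribute poorly to chimeras.

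The mice were 6-week-old Nanog reporters, which carry a Nanog transgene for GFP and puromycin resistance. The clones came from 3 sources in these mice: PaS cells (CD45- Ter119- PDGFRa+ Sca-1+ bone marrow, a mesenchymal stem cell fraction), OP cells (CD45- Ter119- PDGFRa- Sca-1-, osteo progenitors) and tail tip fibroblasts, TTF. All clones carried pMX retroviruses for Oct3/4, Sox2, Klf4 and DsRed, and the 4F clones also c-Myc. After puromycin selection, GFP-positive, DsRed-negative colonies were picked and grown on mitomycin-treated SNL feeder cells. Each of 4F-PaS-iPS, 3F-PaS-iPS, 4F-OP-iPS, 3F-OP-iPS, 4F-TTF-iPS and 3F-TTF-iPS had 5 clones. There was 1 array for each of the ES lines EB-3 and RF8, and 1 for each primary source. Each clone is 1 culture on 1 array, so p-values measure the spread between these arrays, whose number limits the precision.

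Levels are log2 of the background-subtracted signal minus the array's 75th percentile. A level of 0 is therefore the brightness of the probe at that percentile, and 1 unit is a 2-fold difference. Between 56.6 and 71.1% of gene probes on an array were well above background by the scanner's own test. The 3 clones 4F-OP-iPS #1 and #3 and 4F-TTF-iPS #1 stood apart, since Nanog and Sox2 were not well above background in them. Their 9 measured pluripotency markers summed to 3.45 to 3.53 (log2 of the summed level), near the 4.16 of 4F-OP-iPS #2 and below the 6.77 to 9.19 of the other 26 clones. The 30 clones were scanned in 1 session, EB-3 and the source cells in another and RF8 in its own. Each session also had its own version of the extraction software. Session and cell kind therefore cannot be told apart in a comparison of clones with ES cells or with source cells. Clones of the same source made with 3 and with 4 factors never shared a slide, and only 1 slide held both kinds. In the TTF source array the blood markers summed to 5.21 against -4.41 to -3.01 on the other 34 arrays, with Ptprc (CD45, the pan-leukocyte marker) at 4.14.

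The 8 probes for the noncoding RNAs are printed because they define what the lncRNA values measured. They are 60 bases long, lie on chromosome 12 in the array's own annotation (build mm7, strand not stated in the sources used here) and are given as the design file gives them.
Gtl2 probe 1, chr12:107070994-107079479: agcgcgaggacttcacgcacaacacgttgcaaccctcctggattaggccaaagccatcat
Gtl2 probe 2, chr12:107080192-107080251: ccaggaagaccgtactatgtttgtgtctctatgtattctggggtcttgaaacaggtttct
Gtl2 probe 3, chr12:107082578-107082637: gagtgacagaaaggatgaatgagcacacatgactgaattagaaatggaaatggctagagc
Gtl2 probe 4, chr12:107083918-107083977: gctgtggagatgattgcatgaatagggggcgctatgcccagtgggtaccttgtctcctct
Gtl2 probe 5, chr12:107092697-107092756: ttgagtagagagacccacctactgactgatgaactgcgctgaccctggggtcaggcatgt
Rian probe 1, chr12:107172103-107172162: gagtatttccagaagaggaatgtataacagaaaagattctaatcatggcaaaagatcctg
Rian probe 2, chr12:107180614-107180673: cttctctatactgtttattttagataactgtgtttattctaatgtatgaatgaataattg
Mirg probe 1, chr12:107261346-107261405: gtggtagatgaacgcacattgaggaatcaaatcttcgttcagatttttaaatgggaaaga
The first Gtl2 probe covers 8486 bases of genome with 60 bases of sequence, so it lies across a splice. The Rian main probe has 23.3% G and C, the lowest of the 8, and the Gtl2 main probe 55.0%. The Dlk1 probes lie at chr12:106981450-106981509 and chr12:106981689-106981748 and the Dio3 probe at chr12:107799167-107799226.

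The first of 2 RefSeq promoters of Meg3 is shown because Gtl2, the first of the noncoding RNAs that moved together, starts there and it was the one with motif matches. RefSeq (build GRCm38.p6) places it at chr12:109540746-109541045, plus strand, 250 bases before to 50 after the annotated start, and the motif matches are in capitals.
Meg3 promoter: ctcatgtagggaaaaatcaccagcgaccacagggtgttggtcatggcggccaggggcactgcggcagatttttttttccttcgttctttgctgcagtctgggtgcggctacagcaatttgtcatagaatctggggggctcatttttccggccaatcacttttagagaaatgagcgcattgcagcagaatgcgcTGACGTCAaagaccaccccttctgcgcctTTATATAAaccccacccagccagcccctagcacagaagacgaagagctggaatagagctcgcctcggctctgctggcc
The first run in capitals is TGACGTCA, the cyclic AMP response element, 57 bases before the start. The second holds TATATAA, a form of the TATA box, on both strands in overlap, from 28 bases before the start. Of 32851 RefSeq promoters of this length, 1.79% held TGACGTCA and 3.24% TATATAA on either strand, and neither was found in the other Meg3 window (chr12:109545148-109545447) or in those of Rian, Mirg, Dlk1 or Dio3. Only these exact letters were searched for, and the Dio3 window holds tataaa, a related run that was not counted. In the same RefSeq annotation, 58 microRNA hairpins lie between Dlk1 and Dio3, 10 of them within Mirg and 3 within Rian. The array did not measure microRNAs.

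Gtl2 was the member that ranged furthest among the clones, from close to ES level to below detection. Its low end was a single undetected value, in 4F-OP-iPS #2. Without that clone, and with dim values as measured, Dio3 ranged further. In ES cells the Gtl2 level was 5.12 in EB-3 and 4.67 in RF8. The 5 3F-PaS-iPS clones had 5.54, 5.26, 3.23, 3.65 and 5.44, and the 5 4F-PaS-iPS clones 2.80, 1.55, 4.19, 2.91 and 3.30. Clones #1, #2 and #5 of 3F-PaS-iPS were the only 3 of the 30 clones above both ES arrays, while the 4F-PaS-iPS clones all lay below both.
In 3F-TTF-iPS clones the Gtl2 level was 4.37, 4.32, 4.50, 3.16 and 4.81, against 0.43, 2.07, -1.60, 3.40 and 3.98 in 4F-TTF-iPS clones. In 3F-OP-iPS clones it was 2.97, 3.90, 3.13, 2.95 and 2.76. The 4F-OP-iPS clones had -0.29, -7.57, 0.39, 2.28 and 1.71, all below every 3F-OP-iPS clone, and the value of clone #2 was not well above background. Set against the mean of ES cells, Gtl2 in that clone was at least 1342-fold lower, a bound taken from the dimmest probe that the array measured.

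**Figure D1:**
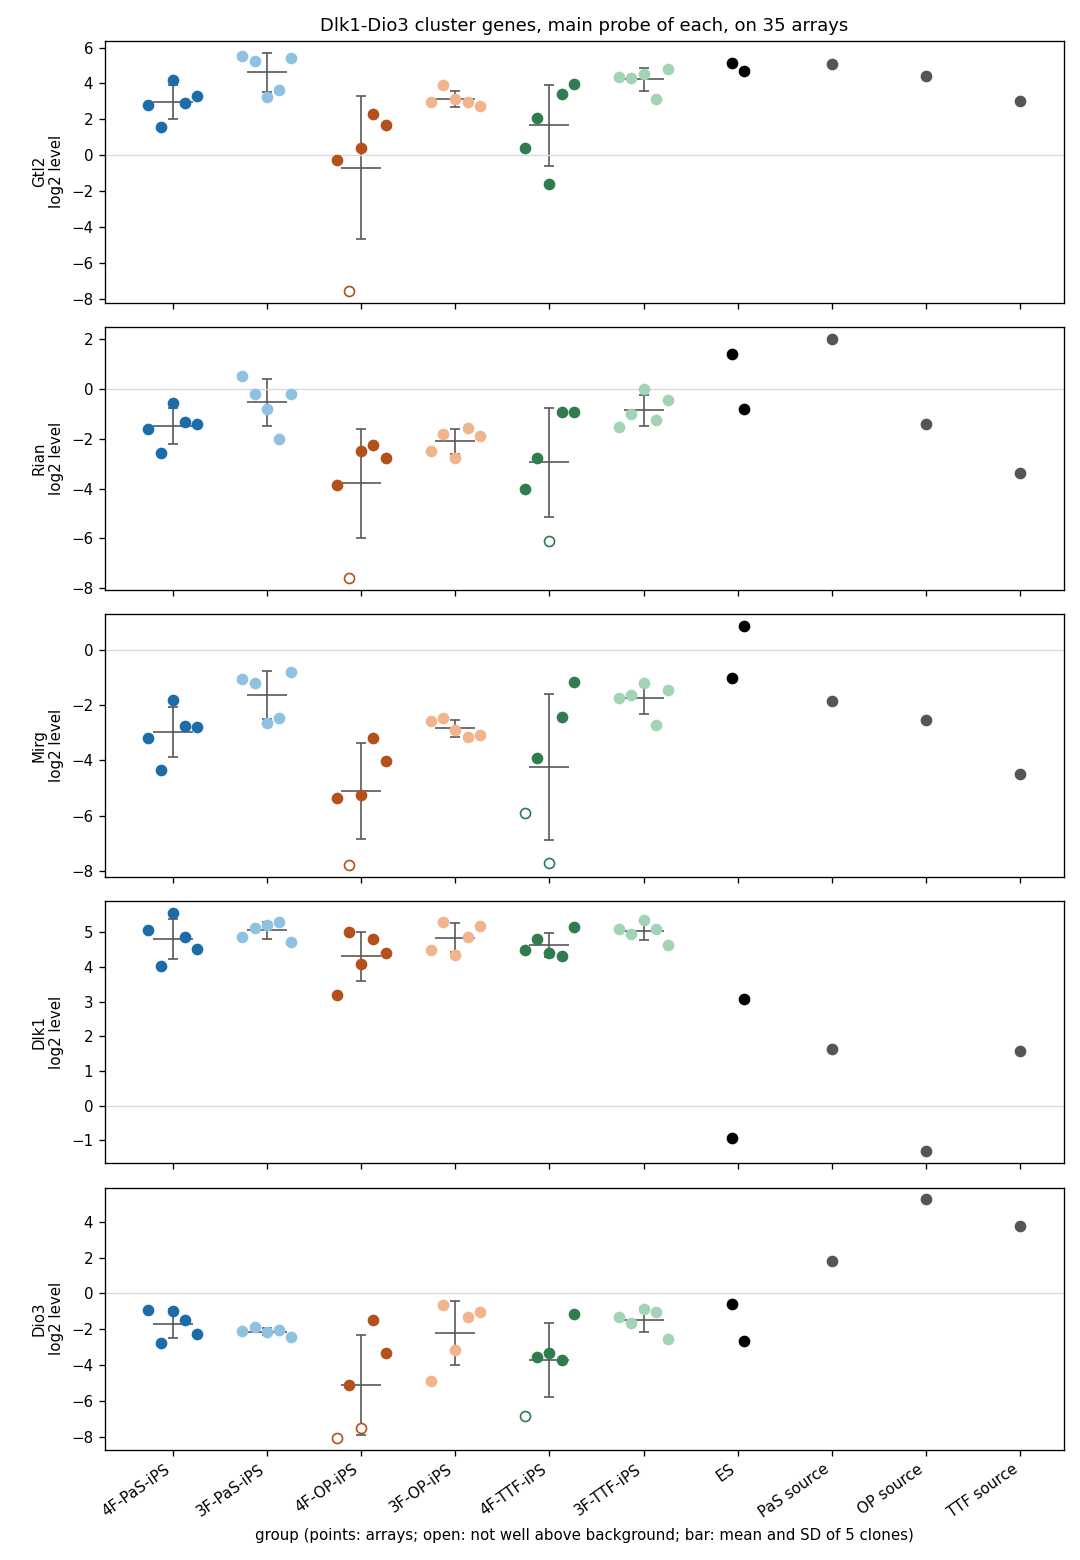
Log2 level (signal relative to the array's 75th percentile) of the main probe of each member on each array, by group. Filled points were well above background, open points were not, and bars give mean and SD of 5 clones. The lowest Gtl2, Rian and Mirg values belong to the groups with 4 factors from OP and TTF cells, Dlk1 lies above both ES arrays in all 30 clones, and Dio3 is highest in the 3 source arrays.

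Ordered by mean Gtl2 level, the groups were 3F-PaS-iPS (4.62 ± 1.10, SD, n = 5), 3F-TTF-iPS (4.23 ± 0.63), 3F-OP-iPS (3.14 ± 0.45), 4F-PaS-iPS (2.95 ± 0.96), 4F-TTF-iPS (1.66 ± 2.28) and 4F-OP-iPS (-0.70 ± 3.98), so the 3F groups took the first places. None of the 5 neighbouring pairs in this order differed beyond their spread after adjustment over the 5 (exact permutation tests, two-sided, adjusted p = 0.0795 to 0.762). The closest was 3F-TTF-iPS over 3F-OP-iPS, by 1.09 (exact permutation p = 0.0159, adjusted 0.0795).

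Rian, which carries small nucleolar RNAs, followed Gtl2. Its level was 1.43 in EB-3 and -0.81 in RF8. The 3F-PaS-iPS clones had 0.51, -0.19, -0.81, -2.02 and -0.17, and the 4F-PaS-iPS clones -1.59, -2.58, -0.55, -1.34 and -1.40. In these groups clone #4 was the lowest of the 3F clones, and the ranges overlapped.
The 3F-OP-iPS clones had -2.51, -1.81, -2.76, -1.55 and -1.90, and the 4F-OP-iPS clones -3.87, -7.60, -2.50, -2.26 and -2.76. In 3F-TTF-iPS clones Rian was at -1.54, -1.01, -0.01, -1.24 and -0.44, and in 4F-TTF-iPS clones at -4.01, -2.77, -6.10, -0.91 and -0.94. The levels of 4F-OP-iPS #2 and 4F-TTF-iPS #3 were not well above background, which put Rian at least 55.9-fold and at least 65.5-fold below the ES mean in these clones. The other Rian probe was dim, well above background in 10 of 30 clones and in none of the 5 4F-OP-iPS clones.

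Mirg, host of a dense group of microRNA genes, ran close to Gtl2 in the order of the clones. Its level was -1.02 in EB-3 and 0.85 in RF8. The 3F-PaS-iPS clones had -1.06, -1.22, -2.65, -2.46 and -0.81, and the 4F-PaS-iPS clones -3.18, -4.33, -1.83, -2.75 and -2.81. Only 3F-PaS-iPS #5 lay above the lower ES array.
The 3F-OP-iPS clones had -2.59, -2.46, -2.92, -3.17 and -3.09, all above the 4F-OP-iPS clones at -5.35, -7.76, -5.25, -3.19 and -4.01. In 3F-TTF-iPS clones Mirg was at -1.74, -1.63, -1.21, -2.71 and -1.45, and in 4F-TTF-iPS clones at -5.91, -3.91, -7.71, -2.44 and -1.16. Not well above background were 4F-TTF-iPS #1, 4F-TTF-iPS #3 and 4F-OP-iPS #2, and Mirg was at least 40.0-fold below the ES mean in each of them.

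Counted against the lower of the ES arrays, 20 of 30 clones were at least 2-fold lower in Gtl2, 13 in Rian and 21 in Mirg. At 4-fold the counts were 9, 4 and 12, and they depended on the probe and the reference: 16 for Gtl2 on probe 3 and 22 on probe 4, 14 for Rian and 21 for Mirg against the mean of the ES arrays, and 5 for Mirg with normexp. The 4 clones low in all 3 RNAs at 4-fold were 4F-OP-iPS #1 and #2 and 4F-TTF-iPS #1 and #3, and they were also the 4 low in all 3 at 8-fold. Each of them was a 4F clone. At 32-fold 4F-OP-iPS #2 and 4F-TTF-iPS #3 remained.

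Of these 4 clones 3 had low pluripotency marker sums, 3.47 in 4F-OP-iPS #1, 4.16 in 4F-OP-iPS #2 and 3.53 in 4F-TTF-iPS #1, and 1 did not. In that clone, 4F-TTF-iPS #3, Pou5f1 was at 3.80, Nanog at 1.32 and Sox2 at 1.82, and the sum was 8.71, the highest of the 5 4F-TTF-iPS clones. In 4F-OP-iPS #2 the levels were -1.96, -3.30 and -2.04. Nanog and Sox2 were not well above background in 4F-OP-iPS #1 (-6.13 and -8.10) and 4F-TTF-iPS #1 (-6.05 and -5.26). The Gtl2 levels of the 3 clones without measurable Nanog and Sox2 were -0.29, 0.39 and 0.43, all above those of 4F-TTF-iPS #3 and 4F-OP-iPS #2.

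**Figure D2:**
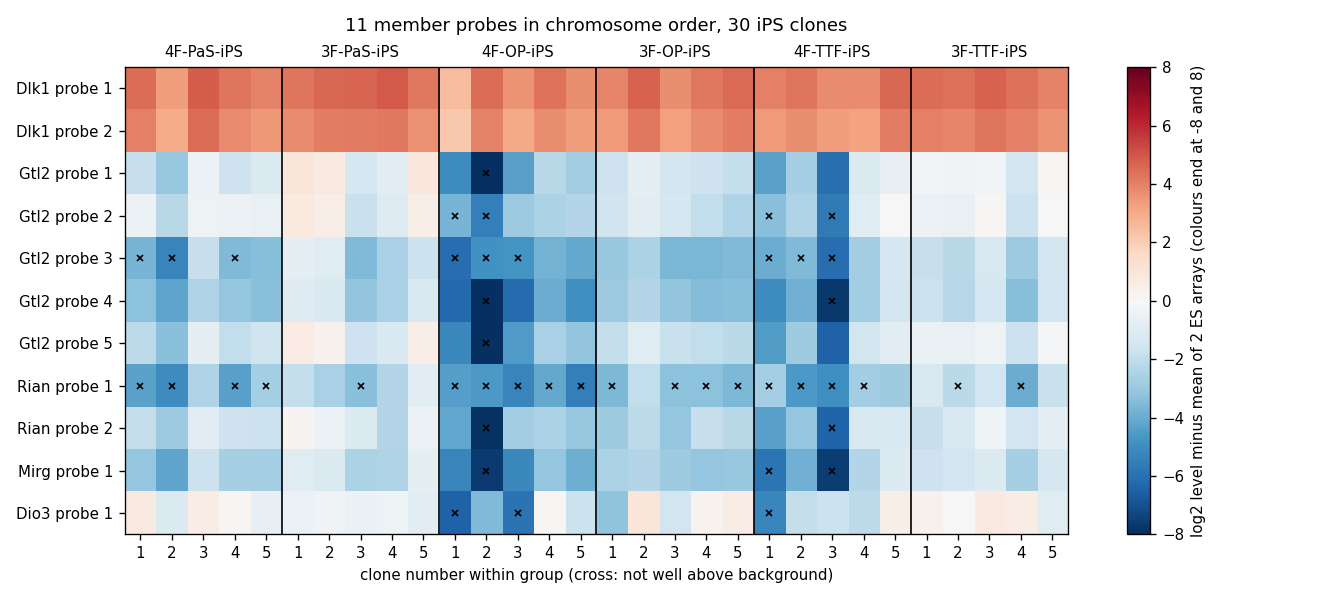
Log2 level minus the mean of both ES arrays for the 11 member probes (rows, in chromosome order) in the 30 clones (columns, by group and clone number), with a cross where the probe was not well above background. The columns of 4F-OP-iPS #2 and 4F-TTF-iPS #3 are the darkest blue over Gtl2, Rian and Mirg, except on Gtl2 probe 3 and Rian probe 1, where other clones below background are as low or lower. Both Dlk1 rows are red in all 30 clones.

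Across clones in which both probes were well above background, the noncoding RNAs rose and fell together. Gtl2 and Mirg correlated with Pearson's r = 0.975 and Spearman's rho = 0.966 over 27 clones (permutation p = 1e-05 for each, the smallest that 100000 resamples can give). For Gtl2 and Rian r was 0.888 and rho 0.855 over 28 clones, and for Rian and Mirg r was 0.862 and rho 0.844 over 27 clones (permutation p = 1e-05 for each). All clones share the array design and scan session, and p-values adjusted over the 5 relations tested were 1.67e-05 for these 3. Without the 2 clones farthest from the median of the first gene, r was 0.960, 0.886 and 0.815 in the same order. Within slides it was 0.949, 0.883 and 0.817, and within the PaS, OP and TTF clones Gtl2 and Mirg correlated at 0.989, 0.977 and 0.935.
Dlk1 tracked Gtl2 less closely. Its r with Gtl2 was 0.627 and its rho 0.557 over 29 clones (permutation p = 0.00049 and 0.00211, adjusted 0.000612 for r). Leaving out 4F-TTF-iPS #3 and 4F-OP-iPS #1 gave 0.535 (permutation p = 0.00391), slides gave 0.432 and the 3 sources 0.394, 0.853 and 0.590. With the dim Gtl2 value of 4F-OP-iPS #2 taken as measured, r was 0.339. Dio3 and Gtl2 had r = 0.344 and rho = 0.262 over 26 clones (permutation p = 0.0849 and 0.194), and r = 0.0624 within slides. With dim values as measured in all 30 clones r was 0.581 (permutation p = 0.0016).

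**Figure D3:**
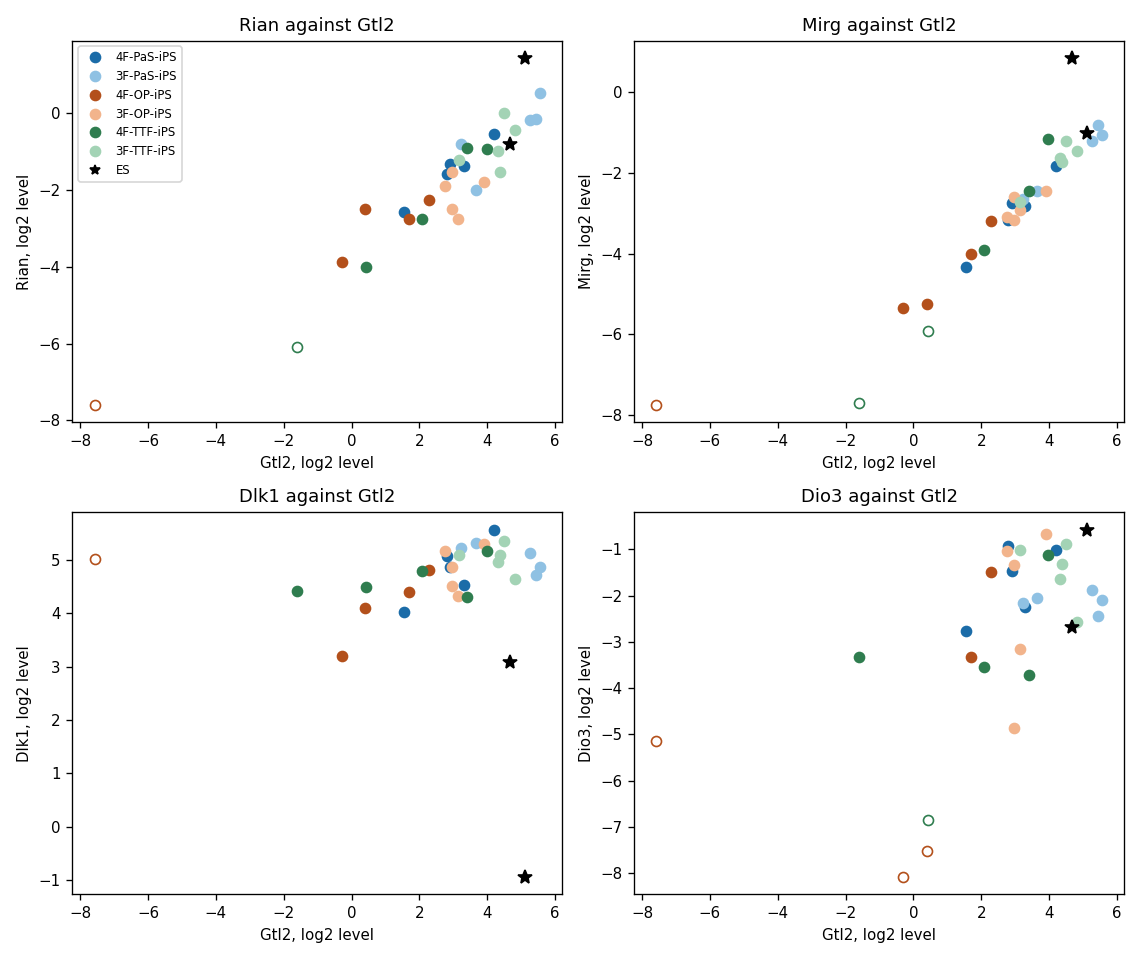
Log2 levels of Rian, Mirg, Dlk1 and Dio3 (vertical) against Gtl2 (horizontal) in 30 clones, coloured by group, with ES cells as stars and open points where either probe was not well above background. Mirg and Gtl2 lie close to 1 line over 27 clones (r = 0.975), and Dlk1 stays at 5.02 in the clone with Gtl2 at -7.57.

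Does leaving out c-Myc go with higher levels of the cluster's RNAs? Averaged over the 3 sources, the 15 3F clones had higher Gtl2, Rian and Mirg than the 15 4F clones. The difference was 2.70 ± 0.68 (SE) for Gtl2, a 6.48-fold higher level (limma, adjusted p = 0.00604), 1.58 ± 0.49 for Rian (adjusted p = 0.0228) and 2.03 ± 0.49 for Mirg (adjusted p = 0.00458). All 8 noncoding probes were called higher at an adjusted p under 0.05 and at least 2-fold, where 4.27% of all tested probes were. Their median difference was 1.81, and that of all tested probes 0.028. Dlk1 differed by 0.39 ± 0.26 (adjusted p = 0.292) and Dio3 by 1.56 ± 0.57 (adjusted p = 0.0510), and neither was called. Without the 3 clones that lacked Nanog and Sox2 the differences were 2.76 ± 0.76 for Gtl2, 1.63 ± 0.54 for Rian and 1.85 ± 0.54 for Mirg (adjusted p = 0.0185, 0.0463 and 0.0250), still called, and 0.70 ± 0.44 for Dio3 (adjusted p = 0.305). Without 4F-OP-iPS #2 as well, the 4 clones of lowest pluripotency sum, Gtl2 was still called (1.70 ± 0.47, adjusted p = 0.0173), while Rian (1.06 ± 0.46, adjusted p = 0.117) and Mirg (1.38 ± 0.50, adjusted p = 0.0610) were not, and Dio3 differed by 0.40 ± 0.43.
Markers of other cells also differed in mean level between 3F and 4F clones. Group means of 16 (PaS-iPS), 14 (OP-iPS) and 13 (TTF-iPS) of the 18 fibroblast or mesenchyme markers were higher in 3F clones, by a median of 0.48, 1.18 and 0.46 over the list. Acta2, a smooth muscle actin, averaged 4.86, 6.38 and 5.99 in 3F against 3.77, 3.14 and 4.17 in 4F clones of PaS, OP and TTF cells. The summed level of the 18 overlapped between 3F and 4F clones in each source (7.90 to 9.93 against 8.11 to 8.97 in OP-iPS). Of the 9 pluripotency markers measured 0 (PaS-iPS), 8 (OP-iPS) and 8 (TTF-iPS) had the higher mean in 3F clones. The part of such cells, or of the pluripotent state, in the differences was not tested.
With normexp background correction Rian and Mirg differed over the sources by 0.87 ± 0.25 and 0.83 ± 0.22 (limma, adjusted p = 0.0235 and 0.0165), under 2-fold and so not called. With slide as a random block the differences in Gtl2, Rian and Mirg were 2.44 ± 1.01, 1.39 ± 0.72 and 1.65 ± 0.72 (limma, adjusted p = 0.164, 0.283 and 0.193) and none was called. On the 1 slide with both kinds, 3 3F-PaS-iPS clones averaged 4.68 in Gtl2 and the single 4F clone, 4F-TTF-iPS #5, had 3.98; for Rian these were -0.16 and -0.94, and for Mirg, in the other direction, -1.64 and -1.16.

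By source, the direction was the same for Gtl2, Rian and Mirg in each of the 3, except that Mirg in TTF-iPS turned to -0.049 (SE 2.50) with slide as a fixed term. In OP-iPS clones Gtl2 was higher in 3F than in 4F clones by 3.84 ± 1.18 (limma, adjusted p = 0.0424; exact permutation p = 0.00794, two-sided, the smallest that 5 against 5 allows). This was 1 of 3 member probes called, all for Gtl2, where 3.94% of tested probes were called higher. Mirg differed by 2.27 ± 0.85 with no overlap (limma adjusted p = 0.0941; exact permutation p = 0.00794) and Rian by 1.69 ± 0.85 (adjusted p = 0.222). Without 4F-OP-iPS #2 the Gtl2 difference was 2.12 ± 0.79 (adjusted p = 0.0859), without the 3 clones that lacked Nanog and Sox2 it was 4.34 ± 1.41 (adjusted p = 0.13), without the 4 of lowest pluripotency sum 1.15 ± 0.95 (adjusted p = 0.713), and with the slide block 4.03 ± 1.57 (adjusted p = 0.179). Without the same 4 clones Mirg differed by 0.75 ± 1.01 and Rian by 0.40 ± 0.93 (limma adjusted p = 0.846 and 0.921).
In TTF-iPS clones Gtl2 differed by 2.57 ± 1.18 (limma adjusted p = 0.163; exact permutation p = 0.0238), Rian by 2.10 ± 0.85 (adjusted p = 0.114) and Mirg by 2.48 ± 0.85 (adjusted p = 0.0603). None of the 11 member probes was called there, while 3.97% of tested probes were called higher. At an unadjusted p under 0.05 there were 9 of the 11, and 7202 of all 27622 probes. In PaS-iPS clones the differences were 1.67 ± 1.18 for Gtl2 (limma adjusted p = 0.476; exact permutation p = 0.0556), 0.96 ± 0.85 for Rian and 1.34 ± 0.85 for Mirg. No member probe was called, where 0.0181% of all tested probes were called in either direction. That share rested on single clones, since 2 probes were called higher and 3 lower with all clones, 259 and 272 without 4F-PaS-iPS #3, and 87 and 82 without #5. At an unadjusted p under 0.05 there were 2 of the 11, and 4772 of all 27622 probes.
The Dio3 difference was near 0 in PaS-iPS clones, at -0.45 ± 0.99. It was 2.90 ± 0.99 in OP-iPS (limma adjusted p = 0.0659) and 2.23 ± 0.99 in TTF-iPS (adjusted p = 0.149). The difference in PaS-iPS did not pass a test against that in OP-iPS (adjusted p = 0.195) or TTF-iPS (adjusted p = 0.293). Without the 4 clones of lowest pluripotency sum the OP-iPS difference was 0.20 ± 0.87 (adjusted p = 0.961). With the clone number as a block, which the labels do not tie to a shared origin, the OP-iPS difference passed (adjusted p = 0.0464).

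**Figure D4:**
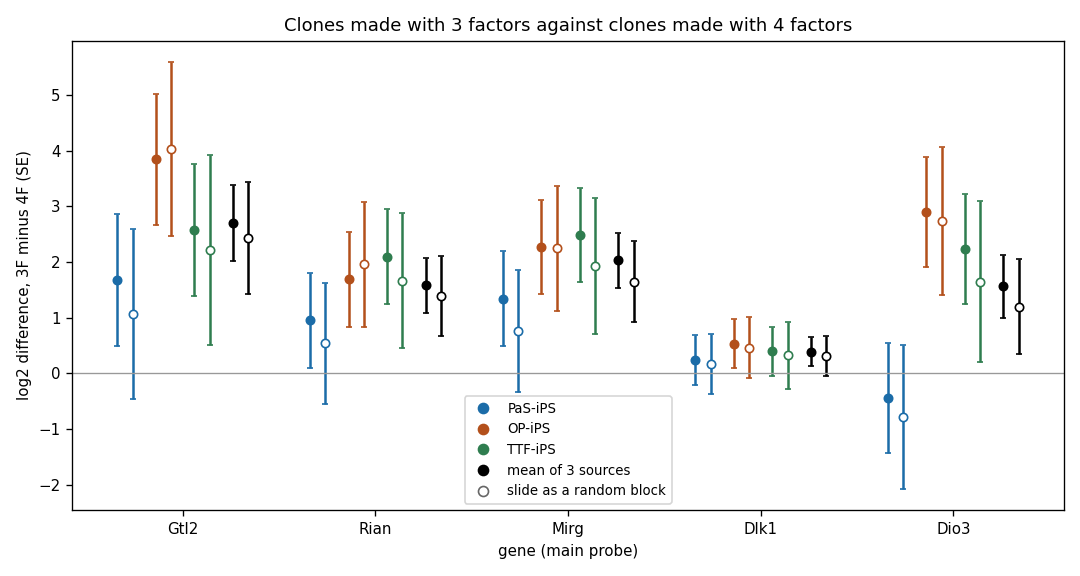
Log2 difference between 3F and 4F clones with its SE for the main probe of each member, in each source and averaged over the 3 sources. Filled points are the fit without slide and open points the fit with slide as a random block. Gtl2, Rian and Mirg lie above 0 in all 3 sources, Dlk1 within 0.53 of 0, and the slide block widens the errors.

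Tests of whether the 3F minus 4F difference itself depended on the source called 0 of the 11 member probes. For Gtl2 the difference in PaS-iPS minus that in OP-iPS was -2.17 ± 1.67 (limma adjusted p = 0.496), PaS-iPS minus TTF-iPS was -0.90 ± 1.67 (adjusted p = 0.805) and OP-iPS minus TTF-iPS 1.27 ± 1.67 (adjusted p = 1). Of all tested probes 0.648%, 0.583% and 0% were called in these, and at an unadjusted p under 0.05 there were 1 (Dio3), 0 and 0 of the 11 member probes, against 5221, 5345 and 1028 of all 27622.

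Between sources, PaS-iPS clones had the highest and OP-iPS clones the lowest means of the noncoding main probes. By median TTF-iPS clones lay above PaS-iPS clones in Gtl2 (3.69 against 3.48) and Mirg (-2.09 against -2.55). Gtl2 averaged 3.79 ± 1.31 (SD, n = 10) in PaS-iPS, 2.94 ± 2.08 in TTF-iPS and 1.22 ± 3.35 in OP-iPS clones. PaS-iPS minus OP-iPS was 2.57 ± 0.83 (SE) for Gtl2 (limma adjusted p = 0.0757), 1.94 ± 0.60 for Rian (adjusted p = 0.0649) and 1.67 ± 0.60 for Mirg (adjusted p = 0.104), and no main probe was called. With normexp background correction Rian was called (1.23 ± 0.30, adjusted p = 0.0355). Gtl2 probes 2 and 4 were called higher, by 2.00 ± 0.52 (adjusted p = 0.0320) and 1.93 ± 0.56 (adjusted p = 0.0488), where 0.815% of tested probes were. Most calls over all probes in this contrast were lost without the 3 clones lacking Nanog and Sox2. On the 3 slides that held both sources the Gtl2 difference was 7.68 (4F clones, slide 5, with 4F-OP-iPS #1 and #2), 0.090 (4F clones, slide 6) and 1.11 (3F clones, slide 9). The other contrasts of sources called no member probe, at 0.5% (PaS minus TTF) and 0.0217% (OP minus TTF) of all tested probes; Gtl2 differed by 0.84 ± 0.83 (adjusted p = 0.657) and -1.72 ± 0.83 (adjusted p = 0.490), and 0 and 5 of the 11 member probes had an unadjusted p under 0.05, against 4588 and 2806 of all 27622.

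Spread among clones of the same group set the noncoding RNAs apart from Dlk1. The pooled within-group SD was 1.99 for Gtl2, 1.40 for Rian, 1.41 for Mirg, 1.64 for Dio3 and 0.46 for Dlk1. These lay at the 99.5th, 96.8th, 96.9th, 98.4th and 55.4th percentiles of all tested probes, whose median SD was 0.42. The SD of Gtl2 was 0.45 in 3F-OP-iPS and 3.98 in 4F-OP-iPS clones, and in the latter 1.18 without the dim value of clone #2. Without that array the pooled SD was 1.25 for Gtl2, 1.11 for Rian and 1.29 for Mirg (95.6th, 93.6th and 96.0th percentiles), and 1.77 for Dio3 and 0.45 for Dlk1 (98.9th and 58.4th), against a median of 0.39.

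Compared with ES cells, the 30 clones had less Mirg, by -3.01 ± 0.98 (limma, adjusted p = 0.0120), while Gtl2 (-2.24 ± 1.36, adjusted p = 0.170) and Rian (-2.26 ± 0.99, adjusted p = 0.0559) did not pass. Rian probe 1 was bright enough for the test only through the ES arrays, which selects for a lower level in clones, and it is left out of the counts against ES cells. Of the other 7 noncoding probes 3 were called lower, and of all tested probes 19.0%. Against the EB-3 array alone the Mirg difference was -2.07 ± 1.37 (adjusted p = 0.224) and that of Rian -3.38 ± 1.37 (adjusted p = 0.0455). Rian also passed with normexp (-1.71 ± 0.49, adjusted p = 0.00798) and without 4F-OP-iPS #2 or #4 or 4F-TTF-iPS #3, #4 or #5.
The 4F-OP-iPS group lay furthest from ES cells. Its Gtl2 was 48.2-fold lower (-5.59 ± 1.56, limma adjusted p = 0.00472), Rian 17.2-fold (-4.10 ± 1.13, adjusted p = 0.00427) and Mirg 32.6-fold (-5.03 ± 1.13, adjusted p = 0.000724). In each, 4 of the 5 clones were measured above background. Without the fifth, 4F-OP-iPS #2, the differences were -3.87 ± 1.01, -3.15 ± 0.95 and -4.37 ± 1.08 (adjusted p = 0.00293, 0.00835 and 0.00177). Against RF8 alone the Rian difference was -2.98 ± 1.47 (adjusted p = 0.119), no longer called. All 7 counted noncoding probes were called lower in the full group, where 19.4% of all tested probes were.
In 4F-TTF-iPS clones Rian (-3.25 ± 1.13, limma adjusted p = 0.0194) and Mirg (-4.14 ± 1.13, adjusted p = 0.00365) were lower and Gtl2 was not called (-3.24 ± 1.56, adjusted p = 0.0877), with 5 of 7 noncoding probes and 19.4% of all called lower. The Rian call was lost without 4F-TTF-iPS #3 (-2.46 ± 1.03, adjusted p = 0.0518) and with slide as a random block (-2.95 ± 1.39, adjusted p = 0.0931), and the Mirg call against EB-3 alone (-3.21 ± 1.48, adjusted p = 0.0803). The 3F-PaS-iPS and 3F-TTF-iPS groups came closest to ES cells, with Gtl2 at -0.27 ± 1.56 (adjusted p = 0.900) and -0.66 ± 1.56 (adjusted p = 0.746), an SE that leaves room for differences of over 2-fold. In each of them limma called 0 of 7 noncoding probes lower, where 19.8% and 18.6% of all tested probes were. At an unadjusted p under 0.05 there was 1, Gtl2 probe 3, against 15411 and 15307 of all 27622 probes in either direction. In 4F-PaS-iPS and 3F-OP-iPS clones 3 of 7 were called lower, against 14.6% and 18.4%, among them Mirg (-2.89 ± 1.13 and -2.76 ± 1.13, adjusted p = 0.0423 and 0.0445). These Mirg calls were lost without 4F-PaS-iPS #1, #2 or #5 and without any of the 5 3F-OP-iPS clones (adjusted p = 0.0509 to 0.0826), with slide as a random block (adjusted p = 0.101 and 0.0884) and, for 3F-OP-iPS, without the brightness filter (adjusted p = 0.0521). Rian in 3F-OP-iPS clones, not called here, was called with normexp (-2.01 ± 0.57, adjusted p = 0.00744).
The 5 Gtl2 probes did not agree on the distance from ES cells. Probes 3 and 4 were lower in the 30 clones by -3.15 ± 0.79 (limma adjusted p = 0.00166) and -3.39 ± 0.91 (adjusted p = 0.00287), while the main probe was not called. Over the 30 clones probes 1, 2, 3 and 4 followed the main probe at r = 0.998, 0.900, 0.766 and 0.937, and without 4F-OP-iPS #2 at 0.999, 0.947, 0.934 and 0.981. Probe 4 lay below both ES arrays in all 30 clones, and the main probe in 26.

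Dlk1, a transmembrane protein related to the Notch ligands, was the steadiest member and the one above ES cells. Its main probe read -0.94 in EB-3 and 3.08 in RF8. The clones lay between 3.20 (4F-OP-iPS #1) and 5.56 (4F-PaS-iPS #3) with a median of 4.87, above both ES arrays in all 30. The 3 source arrays had 1.64 (PaS), -1.32 (OP) and 1.57 (TTF), below every clone.
In 4F-OP-iPS clones Dlk1 was at 3.20, 5.02, 4.09, 4.81 and 4.40, and in 3F-OP-iPS clones at 4.50, 5.30, 4.33, 4.88 and 5.17. Clone 4F-OP-iPS #2, in which Gtl2, Rian and Mirg were not detected, had the highest Dlk1 of its group. Averages over groups ran from 4.30 to 5.05, and 3F and 4F clones did not differ beyond their spread in any source (exact permutation p = 0.0794 to 0.421).
Against ES cells Dlk1 was 13.1-fold higher over all clones (3.71 ± 0.51, limma adjusted p = 1.51e-06), and Dlk1 probe 1 rose by 4.19 ± 0.51 (adjusted p = 2.51e-07). Each of the 6 groups was called higher, by 3.24 (4F-OP-iPS) to 3.98 (3F-PaS-iPS), where 13.3% (4F-PaS-iPS), 17.8% (3F-PaS-iPS), 15.3% (4F-OP-iPS), 17.5% (3F-OP-iPS), 16.8% (4F-TTF-iPS) and 18.4% (3F-TTF-iPS) of all tested probes were called higher, and 17.2% over all clones. Both ES arrays differed from each other by 4.02, more than any clone from another. Over all clones the difference was 5.72 ± 0.46 against EB-3 alone (adjusted p = 2.83e-10) and 1.70 ± 0.46 against RF8 alone (adjusted p = 0.00497). Against RF8 alone the 4F-OP-iPS difference was 1.23 ± 0.49 (adjusted p = 0.0567), no longer called.

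Markers of other cells moved with Dlk1 between clones and ES cells. The 18 fibroblast or mesenchyme markers, all on the array, summed to 4.21 in EB-3, 7.71 in RF8, 7.90 to 9.93 in clones and 9.74 to 10.9 in source cells, and none of the 18 was below background in every clone of a group. The ES array with more of these markers, RF8, was also the one with more Dlk1. In the source arrays the marker sums were near or above that of the highest clone and Dlk1 was lower than in any clone. The 7 early lineage markers summed to 0.943 and 1.38 in ES cells and 2.70 to 6.80 in clones, with the endoderm genes Sox17, Gata6 and Foxa2 above background in all 30. The list did not move as a whole: Pax6, a neural gene, averaged 0.52 in ES cells and -3.48 to -2.11 in the clone groups, and T, a mesoderm gene, -4.45 and -6.98 to -5.21. The part of feeder or differentiated cells in the Dlk1 level was not tested, and in bulk RNA more cells with a transcript and more transcript per cell cannot be told apart. In the clones lowest in Gtl2, 4F-OP-iPS #2 and 4F-TTF-iPS #3, the fibroblast marker sums were 8.97 and 8.77. The part of such cells in the Gtl2 level was not tested either.

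**Figure D5:**
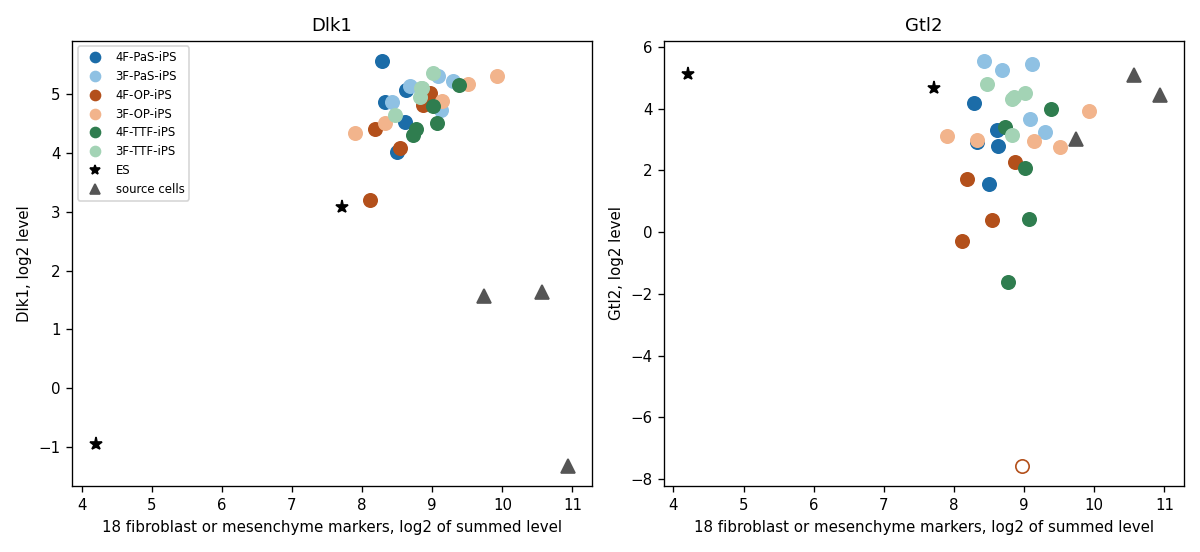
Log2 levels of Dlk1 (left) and Gtl2 (right) against the log2 of the summed level of 18 fibroblast or mesenchyme markers on 35 arrays, with circles for clones, stars for ES cells, triangles for source cells and an open circle for a value not well above background. Dlk1 is higher in every clone than in the 3 source arrays, which have the most marker signal or nearly so, and the lowest Gtl2 values have marker sums of 8.77 and 8.97.

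Dio3, the deiodinase that inactivates thyroid hormone, was brightest in the primary cells. Its level was 1.79 in PaS, 5.25 in OP and 3.75 in TTF source cells, against -0.58 in EB-3, -2.67 in RF8 and at most -0.67 in the clones. In 4F-PaS-iPS clones it was -0.93, -2.76, -1.004, -1.46 and -2.25, and in 3F-PaS-iPS clones -2.09, -1.89, -2.16, -2.06 and -2.44. Of these 10 clones 9 lay between the ES arrays, and 4F-PaS-iPS #2 lay just below RF8.
The 4F-OP-iPS clones had -8.08, -5.14, -7.52, -1.50 and -3.33, and the 3F-OP-iPS clones -4.87, -0.67, -3.15, -1.34 and -1.04. In 4F-TTF-iPS clones Dio3 was at -6.86, -3.54, -3.32, -3.71 and -1.13, and in 3F-TTF-iPS clones at -1.31, -1.64, -0.89, -1.01 and -2.56. It was not well above background in 4F-OP-iPS #1 and #3 and 4F-TTF-iPS #1, and was at least 20.3-, 23.7- and 13.8-fold below the ES mean in them.
Those 3 clones were the same ones without measurable Nanog and Sox2, and Dppa3 (Stella), a protein that guards imprints in early embryos, was not well above background in them either (-7.19, -8.33 and -7.52). Dppa3 was measured in the other 27 clones. It was at 0.50 in 4F-TTF-iPS #3, where Rian and Mirg were dim, and at -3.16 in 4F-OP-iPS #2. This overlap was seen after the values were known. Over all clones Dio3 differed from ES cells by -1.10 ± 1.14 (limma adjusted p = 0.433). In 4F-OP-iPS clones, 3 of 5 measured above background, it was called lower (-3.49 ± 1.31, adjusted p = 0.0305), where 19.4% of all tested probes were. The antisense transcript at this gene, Dio3as, was well above background in 3 of 3 source arrays (-3.69, -1.04 and -2.37 for PaS, OP and TTF) and in 5 of 30 clones, and the source array with the most Dio3 also had the most Dio3as.

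The primary cells had no uniform level of the noncoding RNAs. Gtl2 was at 5.07 in PaS, 4.44 in OP and 3.02 in TTF cells, Rian at 2.01, -1.38 and -3.38, and Mirg at -1.85, -2.53 and -4.48. On these main probes PaS cells had the highest value and TTF cells the lowest of all 3 RNAs. On Gtl2 probe 4 the OP array (-0.81) lay above the PaS array (-1.91). The TTF array was also the one with the blood markers, whose part in its values was not tested. With 1 array for each source, scanned apart from the clones, there is no test. Of the 10 clones from each source, those above the array of that source were 3 (PaS), 0 (OP) and 7 (TTF) in Gtl2, 0, 0 and 8 in Rian, and 4, 1 and 8 in Mirg.

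Between the outermost members the array had 6 other probes. NAP070880-1 was well above background on all 35 arrays, and AK086774, which lies between the Rian probes, in 4 of 30 clones and both ES arrays. AK049674, B830012L14Rik and 4930511J24Rik were above background in 0, 1 and 1 clones. NAP070880-1 and the dim AK086774 entered the test, and neither was called in a comparison of 3F with 4F clones. Over the 3 sources AK086774 was higher in 3F clones by 0.83 ± 0.26 (limma adjusted p = 0.0218), short of the 2-fold limit. NAP070880-1 differed by -0.20 ± 0.13 (adjusted p = 0.287). In the 1 Mb on either side 50 probes were tested. Over the 3 sources 2 of them, both for Rage (a protein kinase gene), were higher in 3F clones by 1.04 and 1.07, where 4.27% of all tested probes were called higher, and the median of the 50 was -0.051, against 1.81 for the 8 noncoding probes. AI132487 was higher in 3F-OP-iPS clones by 1.41 (limma adjusted p = 0.00292), and 1 Rage probe in 3F-TTF-iPS clones by 1.47, each 1 of the 50, where 3.94% and 3.97% of all tested probes were called higher.

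Of 19 genes of imprint maintenance and its chromatin machinery 17 were on the array, with 22 probes tested. Over the 3 sources 1 of the 22 was called between 3F and 4F clones, Dppa3, by 2.37 ± 0.86 (limma adjusted p = 0.0495), where 4.27% of all tested probes were called higher. Without the 3 clones in which Dppa3 was not well above background the difference was 0.87 ± 0.50 (adjusted p = 0.265), no longer called. Most of the list went the other way: 6 of the 22 were higher in 3F clones over the 3 sources, with a median of -0.31. In PaS-iPS clones 1 of the 22 was higher, with a median of -0.57. In OP-iPS clones both probes of Uhrf1, the cofactor of the maintenance methyltransferase, were lower in 3F clones, by -1.11 ± 0.21 and -1.05 ± 0.21 (adjusted p = 0.00292 and 0.00435), where 0.576% of all tested probes were called lower. Dnmt3l, the cofactor of the de novo methyltransferases, was higher in PaS-iPS than in OP-iPS clones by 2.39 ± 0.65 (adjusted p = 0.0371), 1 of the 22 where 0.815% of all were called higher. That share fell steeply without the 3 clones lacking Nanog and Sox2. Against ES cells 12 of the 22 probes were lower in clones and 0 higher, where 19.0% and 17.2% of all tested probes were called: Ctcf, Dnmt3a, Dnmt3b, Eed, Ezh2, Hells, 2 for Jarid2, Setdb1, Trim28 and 2 for Uhrf1. The median over the list was -1.18 and over all tested probes -0.11.

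Among 20288 non-member probes well above background in all 30 clones, the patterns most like that of Gtl2 were those of Tdrd7 (r = 0.821), 2310005C01Rik (0.782), Pvrl1 (0.775), Bmyc (0.770) and Rkhd3 (0.756). The most opposite were Anp32a (-0.820), Nedd8 (-0.793), Gmfb (-0.784), Phgdhl1 (-0.780) and Ppp3cb (-0.779). These are descriptions over 30 clones of one scan session. Without 4F-OP-iPS #2 the same 5 highest lay between 0.489 and 0.632 and the same 5 lowest between -0.697 and -0.594. They were chosen over all 30 clones, which by itself favours weaker values without the most extreme clone. Probes were not ranked anew over 29 clones. Over the same 29 clones Mirg correlated with Gtl2 at 0.979 and Rian at 0.918.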

How the data were processed

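RNA labelled with Cy3 was hybridised to 1-colour Agilent mouse arrays, and per the file headers the deposited scanner intensity was background-subtracted and detrended by Agilent Feature Extraction. The deposited log2 table, made by the authors in GeneSpring GX and centred on each probe's median, was used as an alternative; its exact scaling is not given in the sources used here. Here each array's log2 signal was scaled to its 75th percentile, control and outlier spots were left out, and spots of a probe were averaged. The filter kept the 27622 probes for which some group among the 7 fitted (6 of clones, 1 of ES cells, 32 arrays) had no array below background. limma 3.58.1 in R 4.3.3 was fitted to all of them, with Benjamini-Hochberg adjustment over all and calls at an adjusted p under 0.05 and at least 2-fold. Source arrays were described only. Values below background entered fits as measured, and "at least" folds use the array's dimmest measured probe. Single values were also tested by exact permutation (252 arrangements) and correlations by 100000 permutations with scipy. The fit was tested on simulated data.

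Alternatives were quantile scaling, normexp with offset 50, the authors' table, no brightness filter, slide or clone number as a block, each clone left out, other probes and each ES line alone; leaving out 3 clones without Nanog and Sox2 or the 4 of lowest pluripotency sum, and the spread without 4F-OP-iPS #2, were added after the values were seen. Members, gene lists and tests were chosen with earlier results of these data known. Named genes are all members, the probes between them, called flanking and list genes, and the 5 most and 5 least correlated probes. Gene symbols are those of the array design. Clone numbers were checked as a pairing: of 75 pairs of same-numbered clones of different groups, 16 had a correlation of deviations from group means over 0.1 (median -0.0005), so the number is only a name.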

Additional observations from a re-analysis of the deposited data

Results flagged for a closer look

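In 30 sets of 5 clones (5 main probes in 6 groups), 1 value lay far from the rest of its group by Dixon's criterion, where chance gives about 1 in 20. Gtl2 in 4F-OP-iPS #2 was at -7.57 on the log2 scale, not well above background, and the nearest other clone of the group was at -0.29. The gap was 0.739 of the range of the group. With the dim value set to the bound used for folds (-5.50, the dimmest probe measured on that array) it was 0.669 and no longer met the criterion, so the call rests on a value that was not measured above background.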

How the results depend on the processing

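The direction of Gtl2 in the comparisons of 3F with 4F clones held under every alternative run, but the call in OP-iPS clones (3.84) did not. It was lost with normexp (2.86, adjusted p = 0.0557), without the brightness filter (3.84, adjusted p = 0.0578), with slide as a random block (4.03), without the 3 clones lacking Nanog and Sox2 (4.34), without the 4 of lowest pluripotency sum (1.15) and on Gtl2 probes 2 (1.73) and 3 (1.43). Leaving out 1 clone gave 2.12 to 4.59, and the call was lost without 4F-OP-iPS #1, #2 or #3 or 3F-OP-iPS #2, #3, #4 or #5. Averaged over sources it was lost with the slide block (2.44). With slide as a fixed term, TTF-iPS was the only source whose own 3F minus 4F difference could be fitted, through other groups. There Mirg turned to -0.049 and Dio3 to -0.90 (SE 2.50 and 3.07). The cause of these changes was not tested.
The replicate block (clone number) left the Gtl2 value at 3.84 in OP-iPS (adjusted p = 0.0434) and 2.70 over sources, and as a block moved Dio3 past the threshold in OP-iPS (2.90) and over sources (1.56, adjusted p = 0.0366). It changed no other call among the members reported.
Differences between sources of the 3F minus 4F effect on Gtl2 changed sign on probe 3 (0.21 for PaS minus OP, 0.054 for PaS minus TTF, -0.16 for OP minus TTF) and on probe 2 (-0.24 for OP minus TTF). Without single clones OP minus TTF ran from -0.45, without 4F-OP-iPS #2, to 2.08. In the plain contrast of sources, over 3F and 4F clones together, Gtl2 became called for PaS-iPS minus OP-iPS on probes 2 (2.00) and 4 (1.93) and without 4F-OP-iPS #2 or #4, with a range of 1.71 to 2.94.
Against ES cells, Gtl2 became called on probe 3 (-3.15) and probe 4 (-3.39) over all clones, in 4F-PaS-iPS (-3.55 and -3.28) and in 3F-OP-iPS (-3.27 and -3.07). In 4F-TTF-iPS it was called with normexp (-3.07), on probes 2, 3 and 4 (-2.51, -3.54 and -4.17) and without clone #5, in a range of -3.82 to -2.42. In 3F-PaS-iPS it turned to 0.062 on probe 1 and ran from -0.50 to 0.082, the last without clone #3. Rian in 3F-PaS-iPS turned to 0.28 against RF8 alone. Calls for Mirg in 4F-PaS-iPS and 3F-OP-iPS were lost against either ES line alone, and those for Rian in 4F-OP-iPS and 4F-TTF-iPS against RF8 alone. Between 3F and 4F clones, Mirg became called in OP-iPS without 4F-OP-iPS #4 (2.75) and in TTF-iPS without 4F-TTF-iPS #4 or #5 (2.93 and 3.25), and Dio3 in OP-iPS without 4F-OP-iPS #4 or #5 or 3F-OP-iPS #1 (3.80, 3.35 and 3.57) and over sources without any of 7 clones (1.62 to 1.86). Without 4F-OP-iPS #4, Rian and Mirg became called higher in PaS-iPS than in OP-iPS clones (2.13 and 1.91). With normexp Rian and Mirg averaged over sources kept an adjusted p under 0.05 but differed by less than 2-fold (0.87 and 0.83).
The number of clones at least 4-fold low in Gtl2 was 16 on probe 3 and 22 on probe 4. For Rian it was 14 against the mean of ES cells, and for Mirg 21 against the mean of ES cells and 5 with normexp. With dim values taken as measured in all 30 clones, Gtl2 correlated with Dlk1 at 0.339 (permutation p = 0.0642) and with Dio3 at 0.581 (permutation p = 0.0016). Over all probes, calls higher and lower in 3F clones numbered 1087 and 159 in OP-iPS, 1096 and 499 in TTF-iPS and 1179 and 295 over sources. With quantile scaling they were 725 and 347, 905 and 831, and 933 and 434; with normexp 227 and 41, 284 and 197, and 281 and 134; with the slide block 134 and 34, 6 and 1, and 318 and 77; without the 3 clones lacking Nanog and Sox2 136 and 32, 670 and 323, and 677 and 180. Without those 3, calls for PaS minus OP fell from 225 and 218 to 9 and 6. PaS-iPS had 2 and 3, with normexp 60 and 117 and with the slide block 0 and 0 (limma; 3266 at an unadjusted p under 0.05). The authors' table changed none of the Gtl2 calls. Dim signals near background limit how far the lowest clones can be ordered.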
